A study of Mus musculus with 8 samples.

Results

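Janus kinases and STAT factors (signal transducers and activators of transcription) were followed at the RNA level in blood stem cells of mice with and without a Gata2 mutation. 9 genes were chosen by name and matched to the files through a GENCODE mouse annotation, out of 53715 genes counted: the kinase genes Jak1, Jak2 and Tyk2, and the STAT genes Stat2, Stat3, Stat4, Stat5a, Stat5b and Stat6. Other genes of these families are not analysed here. All 9 passed the filter on low counts. The cells were bone marrow haematopoietic stem cells, sorted as lineage-negative cells with Sca-1 and Kit on their surface that lacked CD48 and carried CD150 (LSK CD48- CD150+). 4 libraries came from wild-type mice (Gata2 WT) and 4 from mice labelled Gata2; Mx1-Cre heterozygote, and 4 mice per genotype gave 1 library each. All mice, controls included, had received 6 doses of pIpC, a double-stranded RNA mimic that induces interferon, and were 8 to 12 weeks old. Mx1-Cre is a recombinase transgene under an interferon-inducible promoter, active in many cell types besides blood. Whether wild-type mice had the transgene is not in the labels, so transgene and Gata2 allele cannot be told apart. The strain and any litter relation are not given in the sources used here.

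Janus kinases are tyrosine kinases bound to the inner ends of cytokine receptors. When a cytokine brings receptor chains together, the kinases phosphorylate each other, the receptor and then STAT proteins, which pair up, enter the nucleus and bind DNA. In blood stem cells the pathway carries signals of growth and survival cytokines through Jak2 and Stat5, and of interferons through Jak1, Tyk2 and Stat2, and it is switched on by phosphorylation, which RNA levels do not measure.

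The genes are protein-coding and were counted over all annotated exons on GRCm38. Jak1 lies at chr4:101152367-101265282 on the minus strand, Jak2 at chr19:29251828-29313080 on the plus strand and Tyk2 at chr9:21104068-21131243 on the minus strand. Stat4 lies at chr1:51987148-52107189, and Stat6 and Stat2 at chr10:127642986-127660957 and chr10:128270559-128292849, all on the plus strand. Chromosome 11 carries Stat5b at chr11:100780731-100850724 (minus), Stat5a at chr11:100859351-100885169 (plus) and Stat3 at chr11:100885098-100939540 (minus) side by side.

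Start regions were read from RefSeq (GRCm38.p6) for all 9 members, in 12 windows that run from 250 bases before to 50 after an annotated start. Each window was searched on both strands for TTCNNNGAA, a spaced palindrome bound by several STAT dimers, for GAAANNGAA, a core of the interferon-stimulated response element to which Stat2 is recruited with Irf9, and for GATAA, a core of GATA factor sites. GAAANNGAA was in 2 of the 12 windows, 1 of Stat2 and 1 of the 2 of Stat4, while 8.56% of 32851 RefSeq windows of that length held it. TTCNNNGAA and GATAA were in 0 of the 12, against 8.30% and 25.4% of all windows. GATAA spans 5 bases, and each of the other motifs 9. A match describes letters only, and its absence says only that these letters are not in these windows. The upstream parts of the matching windows are shown because Stat2 and Stat4 stand at opposite ends of the STAT range per exon length. That of Stat6, the member with the lowest fold change, is shown beside them. All lie on the plus strand, at chr10:128270248-128270497 for Stat2, chr1:52007990-52008239 for Stat4 and chr10:127642736-127642985 for Stat6, and capitals mark the GAAANNGAA match, which lies on the minus strand in Stat2.
Stat2: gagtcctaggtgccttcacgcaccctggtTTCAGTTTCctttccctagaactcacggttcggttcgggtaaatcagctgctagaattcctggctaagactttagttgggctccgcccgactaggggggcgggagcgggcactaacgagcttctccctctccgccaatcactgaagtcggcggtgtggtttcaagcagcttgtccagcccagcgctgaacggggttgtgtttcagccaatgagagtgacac
Stat4: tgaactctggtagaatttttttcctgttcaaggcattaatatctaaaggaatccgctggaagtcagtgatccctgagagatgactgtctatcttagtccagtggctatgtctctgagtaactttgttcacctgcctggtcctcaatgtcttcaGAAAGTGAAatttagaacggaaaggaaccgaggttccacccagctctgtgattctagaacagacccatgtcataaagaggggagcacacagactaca
Stat6: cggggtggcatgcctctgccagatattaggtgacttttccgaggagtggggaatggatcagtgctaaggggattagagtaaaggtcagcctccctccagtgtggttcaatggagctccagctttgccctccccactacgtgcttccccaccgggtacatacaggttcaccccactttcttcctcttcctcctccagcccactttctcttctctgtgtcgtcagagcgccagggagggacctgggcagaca

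Stat5a and Stat5b are neighbouring copies on chromosome 11, transcribed away from each other, with 8626 bases between their annotated genes. One start window of Stat5a and the downstream of the 2 start windows of Stat5b share a stretch of 65 bases with 58 identical (89.2%), which begins 66 bases before the Stat5a start and 57 before the Stat5b start. No other pair of members shared as long a stretch. It is shown because these 2 genes are the closest copies among the members, and capitals mark the identical bases.
Stat5a: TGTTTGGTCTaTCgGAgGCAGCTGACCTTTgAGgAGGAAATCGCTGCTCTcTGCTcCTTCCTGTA
Stat5b: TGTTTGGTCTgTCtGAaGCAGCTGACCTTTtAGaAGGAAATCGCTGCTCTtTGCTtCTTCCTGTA

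Depth ran from 16750778 to 22861884 fragments assigned to genes per library, with 16976 to 17906 genes detected, and 13992 genes were tested. Replicates 1 and 4 of both genotypes came from females and replicates 2 and 3 from males, as read from sex-linked transcripts. Levels are in CPM, the share of a library's counts scaled by library size and the trimmed mean of M-values (TMM). Gata2 itself averaged 35.8 ± 7.65 CPM under the wild-type and 44.8 ± 12.2 CPM under the heterozygote label (SD, n = 4 each), so total Gata2 RNA did not go with the label, and directions below are those of the library labels. Exon sums do not show whether part of the gene was removed. Ly6a, which encodes the sort marker Sca-1 and is induced by interferon, was at 96.5 ± 17.6 and 139 ± 13.2 CPM. T cell and natural killer genes that could bring in Stat4 (Cd3e, Cd3g, Trbc2, Ncr1, Gzma) had 0 counts in all 8 libraries, and 6 of 12 lymphoid and natural killer markers in all were at 0. Of the others, the T cell gene Cd3d reached 0.440 CPM (at most 10 fragments). The natural killer gene Klrb1c ran from 3.70 to 6.08 CPM in wild-type and from 0 to 2.88 CPM in heterozygote-labelled libraries, without overlap. The sum of the list ran from 349 to 567 CPM in wild-type and 415 to 639 CPM in heterozygote-labelled libraries, nearly all of it Nkg7 and Cd79b. Erythroid markers summed to between 39.1 and 85.1 CPM in wild-type and 22.1 and 54.3 CPM in heterozygote-labelled libraries, with 6 of 7 tested genes lower. Megakaryocyte and platelet markers summed to between 701 and 988 and between 520 and 832 CPM, with 8 of 9 lower. Over all tested genes 52.0% were lower. Of granulocyte and monocyte markers 7 of 11 were lower, of mast cell and basophil markers 1 of 2, and of stem cell sort and identity markers 2 of 9. The part of these cell types in any result below was not tested, and in bulk RNA fewer cells of a type and less RNA per cell cannot be told apart.

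Per length of exon, Jak1 was the most abundant member and Tyk2 the least. Means over the 8 libraries, in CPM per kilobase, were 35.2 ± 4.77 for Jak1, 11.0 ± 2.01 for Stat4, 10.3 ± 2.44 for Stat3, 6.24 ± 1.86 for Jak2 and 6.02 ± 1.22 for Stat5a (SD, n = 8). Below these stood Stat5b at 4.10 ± 0.898, Stat6 at 2.65 ± 1.24, Stat2 at 1.01 ± 0.530 and Tyk2 at 0.720 ± 0.400 CPM per kilobase. Jak1 lay above Stat4 in 8 of 8 libraries and Stat6 above Stat2 in 8 of 8, while Stat4 over Stat3, Stat3 over Jak2, Stat5a over Stat5b and Stat5b over Stat6 each held in 7 of 8. Jak2 exceeded Stat5a in 4 of 8 libraries and Stat2 exceeded Tyk2 in 5 of 8, so neither pair of neighbours could be ordered by this measure. The length was that of all annotated exons together, 7133 bases for Stat5a, 9527 for Stat3, 3872 for Stat4 and 5030 for Jak2. Their longest transcripts have 3958, 6042, 2982 and 5030 bases, so the order of members with close levels depends on the length chosen. Among all tested genes Jak1 was at the 86.0th percentile of level per length, Stat4 at the 69.6th and Tyk2 at the 17.7th.

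**Figure D1:**
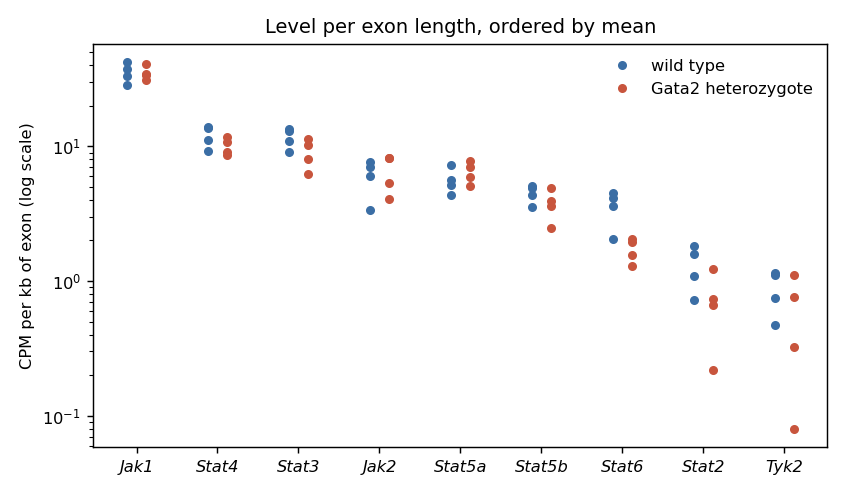
Level of each member in CPM per kilobase of exon (log axis), genes ordered by their mean over 8 libraries, with 4 wild-type libraries in blue and 4 heterozygote-labelled libraries in red. Jak1 lies above every other member in all 8 libraries, and the lowest point is Tyk2 at 0.0803 CPM per kilobase.

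Stat4 was close to Stat3 in level per length, and it is best known from T and natural killer cells, where it carries interleukin 12 signals. In the same libraries the T cell receptor genes Cd3e, Cd3g and Trbc2 had no counts, and Cd3d at most 10 fragments. The natural killer gene Klrb1c had up to 134, and Nkg7, on the same marker list, up to 9026 (228 to 510 CPM). The part of T and natural killer cells in the Stat4 level was not tested. Its level of 33.2 to 53.9 CPM rested on 647 to 1270 fragments per library. An overlapping gene on the same strand, Gm28177, covers 26.7% of the Stat4 exon bases, and fragments in the shared part were left out under the counting options in the file headers, so the level per length is an underestimate. Gm28177 itself collected 0 to 8 fragments. The shares of the other members that sequence could have removed were small: 5.12% of 75-base windows of Stat5a and 6.99% of those of Stat5b occur in the other copy, and 0.113% of those of Stat2 occur elsewhere.

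No member passed the adjusted threshold between genotypes. edgeR's quasi-likelihood test called 0 of the 9 members, and 0.0% of the 13992 tested genes, at an adjusted p under 0.05. DESeq2 called 0 of the 9 and 0.505% of 15650 genes. At an unadjusted p under 0.05 there was 1 member, Stat6, beside 5.66% of all genes tested. Stat6 was also the 1 member whose 4 heterozygote-labelled libraries all lay below all 4 wild-type libraries, as in 1.82% of genes. 7 of the 9 members had a fold change below 1, with a median of -0.26 on the log2 scale, and 52.0% of all tested genes were below 0, with a median of -0.02.

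**Figure D2:**
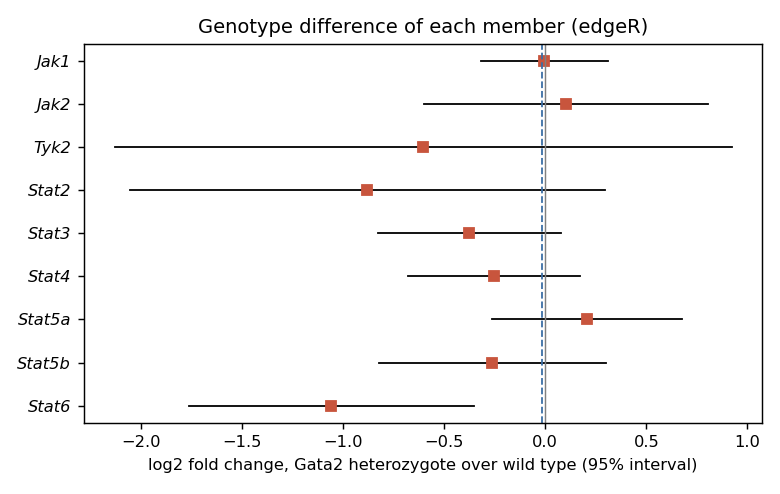
Log2 fold change of each member, heterozygote label over wild type, as squares with the 95% interval from edgeR (4 libraries per group), with a dashed line at the median of all tested genes, -0.02. The interval of Stat6 alone does not reach 0, and those of Tyk2 and Stat2 are the widest.

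Jak1, the kinase shared by interferon, gp130-type and common gamma chain receptors, was the steadiest member. Wild-type replicates 1 to 4 contained 272, 304, 205 and 239 CPM, and heterozygote-labelled replicates 1 to 4 contained 223, 250, 247 and 297 CPM. The groups overlapped over most of their range. Between genotypes the log2 difference was -0.0046 (SE 0.14, adjusted p = 0.996 by edgeR), a sign that turned under other scalings. The 95% interval ran from 0.801-fold to 1.24-fold, and the highest library was 1.49 times the lowest.

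Jak2, the kinase of the erythropoietin and interleukin 3 receptors, held 16.9, 35.6, 38.4 and 30.3 CPM in the wild-type replicates. The heterozygote-labelled replicates held 26.9, 41.2, 20.5 and 41.5 CPM. Wild-type replicate 1 and heterozygote-labelled replicate 3 were the low libraries, 1 in each group. The log2 fold change was 0.10 (SE 0.31, 95% interval 0.661-fold to 1.75-fold, adjusted p = 0.966 by edgeR), and without wild-type replicate 1 it was -0.0873.

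Tyk2 pairs with Jak1 at the receptor for type I interferon and was the least abundant member. It stood at 7.86, 5.10, 3.25 and 7.66 CPM in wild-type and 5.26, 0.551, 2.24 and 7.63 CPM in heterozygote-labelled replicates. Heterozygote-labelled replicate 2 was far below the rest, with 9 fragments. Its log2 difference of -0.60 (SE 0.68, adjusted p = 0.919 by edgeR) became -0.24 without that library and -1.15 without heterozygote-labelled replicate 4. With a term for sex it was -0.91 (adjusted p = 0.818 by edgeR). The 4 libraries from females held 5.26 to 7.86 CPM and the 4 from males 0.551 to 5.10 CPM, without overlap, and the other 8 members overlapped between the sexes. The closest values of the sexes were 5.10 and 5.26 CPM. This split was noticed after the values were seen and was not itself tested. The share of all tested genes that split by sex was not computed, so the split is not read as a trait of Tyk2.

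The 3 kinases together stood at 42.2 ± 5.67 CPM per kilobase in wild-type and 42.2 ± 6.01 in heterozygote-labelled libraries (SD, n = 4 each). Jak1 supplied 83.4% ± 4.79 of that sum in wild-type and 83.6% ± 3.54 in heterozygote-labelled libraries. Set against Jak1 in the same library, Jak2 differed by 0.10 on the log2 scale (p = 0.829) and Tyk2 by -1.09 (p = 0.286), by exact two-sided permutation tests over 70 assignments with 0.571 as the lower of these 2 adjusted p-values over 4 ratios tested. Without heterozygote-labelled replicate 2 the Tyk2 to Jak1 difference was -0.34. The smallest p these tests allow is 0.0286, and 1 ratio alone at that value would have an adjusted p of 0.114, so these tests say little about a shift in a single ratio.

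Stat6, the transcription factor of interleukin 4 and interleukin 13 signals, had the lowest fold change of the 9. Wild-type replicates 1 to 4 had levels of 18.3, 15.8, 9.09 and 19.9 CPM, and heterozygote-labelled replicates 1 to 4 had 6.91, 9.06, 8.62 and 5.68 CPM, from 111 to 451 fragments. All heterozygote-labelled libraries lay lower, though wild-type replicate 3 was above the highest of them by only the gap from 9.06 to 9.09. Group means were 15.8 ± 4.74 and 7.57 ± 1.56 CPM (SD, n = 4 each). The fold change was 0.480 (log2 -1.06, SE 0.32, 95% interval 0.295-fold to 0.782-fold), and edgeR's quasi-likelihood test gave an unadjusted p of 0.00746, adjusted p = 0.850. DESeq2 gave an adjusted p of 0.106. The exact two-sided permutation p was 0.0286, the smallest that 70 assignments allow.

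The separation depended on the scaling, and the size of the difference moved with base composition. Without the TMM factors, wild-type replicate 3 had 8.59 CPM and heterozygote-labelled replicate 2 had 8.84, so the groups overlapped. Across tested genes the correlation between a gene's GC content and its deviation in a library was 0.180 and 0.232 in wild-type replicates 1 and 2, -0.162 in wild-type replicate 3, and between -0.0988 and 0.0402 in the other 5 libraries. These are descriptions over genes, which are not independent replicates. GC content was taken from the longest transcript of each gene, which is 53.7% GC for Stat6. With the GC and length trend of each library removed, Stat6 ran from 10.7 to 19.6 CPM in wild-type and from 5.90 to 10.3 CPM in heterozygote-labelled libraries, still without overlap, a log2 difference of -0.79 (adjusted p = 0.911 by edgeR). Its direction was the same in each alternative run, from -1.25 to -0.79.

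**Figure D3:**
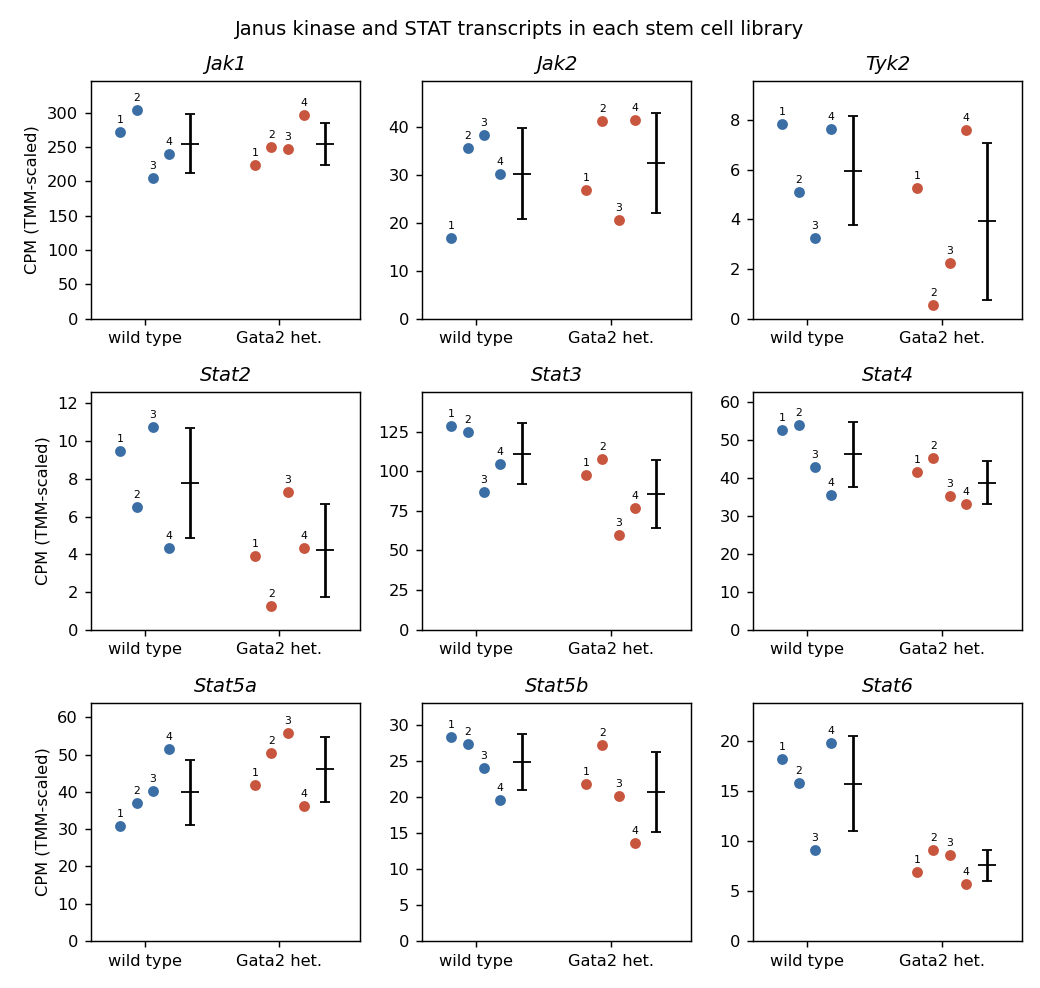
CPM of each member by genotype label, 1 point per library numbered by replicate, with the mean and SD of each group in black and axes from 0. Stat6 is the 1 panel where the groups do not overlap, by 9.09 against 9.06 CPM at the closest, and heterozygote-labelled replicate 2 is the low point of Tyk2 and Stat2.

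Stat2, the partner of Irf9 in the complex that answers type I interferon, was the rarest STAT of the 6. Wild-type replicates held 9.47, 6.51, 10.8 and 4.32 CPM, and heterozygote-labelled replicates 3.91, 1.29, 7.31 and 4.35 CPM. Wild-type replicates 2 and 4 lay within the heterozygote-labelled range, and heterozygote-labelled replicate 2 was lowest, with 21 fragments. The log2 fold change was -0.88 (SE 0.53, 95% interval 0.241-fold to 1.23-fold, adjusted p = 0.850 by edgeR), and -0.58 without that library. Irf9 was at 141 ± 20.3 and 149 ± 22.7 CPM (SD, n = 4 each), a log2 fold change of 0.08 (SE 0.15, adjusted p = 0.947 by edgeR). Stat2 lies 609601 bases from Stat6 on chromosome 10. The ratio of Stat2 to Stat6 differed between genotypes by -0.02 on the log2 scale, with p = 0.971 by the exact permutation test and within-group SDs of 1.01 and 1.19, so it was too variable to show whether the 2 genes kept their proportion.

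Stat3, the factor of gp130 cytokines and granulocyte colony-stimulating factor, was at 128, 125, 87.0 and 104 CPM in wild-type and 97.8, 108, 59.8 and 76.8 CPM in heterozygote-labelled replicates. Replicate 3 was the lowest library in each genotype. The log2 fold change was -0.38 (SE 0.20, 95% interval 0.563-fold to 1.06-fold), and edgeR's quasi-likelihood test gave an unadjusted p of 0.0947, adjusted p = 0.850. With the GC trend removed the difference was -0.22. The 3′ ends of Stat3 and Stat5a overlap by 72 bases on opposite strands, which the stranded counting keeps apart.

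Stat4 levels were 52.5, 53.9, 42.9 and 35.6 CPM in wild-type and 41.6, 45.2, 35.3 and 33.2 CPM in heterozygote-labelled replicates. The 2 highest libraries were wild type and the other 6 were mixed. The log2 fold change was -0.25 (SE 0.19, 95% interval 0.625-fold to 1.13-fold, adjusted p = 0.859 by edgeR), and -0.16 without wild-type replicate 2.

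Stat5a and Stat5b encode near-identical factors downstream of interleukin 3 and growth hormone, and their RNAs were described separately and as a ratio. Stat5a held 30.8, 37.0, 40.3 and 51.4 CPM in wild-type and 41.9, 50.5, 55.7 and 36.1 CPM in heterozygote-labelled replicates, with a log2 fold change of 0.21 (SE 0.21, adjusted p = 0.907 by edgeR). Stat5b held 28.2, 27.3, 23.9 and 19.6 CPM in wild-type and 21.7, 27.2, 20.1 and 13.6 CPM in heterozygote-labelled replicates, with a log2 fold change of -0.26 (SE 0.25, adjusted p = 0.897 by edgeR). Stat5a was the 1 STAT gene of 6 with a fold change above 1. Per length, Stat5a over Stat5b was 0.848, 1.05, 1.31 and 2.04 in wild-type and between 1.44 and 2.15 in the 4 heterozygote-labelled replicates. Wild-type replicate 4 sat among the heterozygote-labelled libraries and the other 3 wild-type libraries below them. The ratio differed by 0.50 on the log2 scale (p = 0.114 by the exact permutation test, adjusted p = 0.457 over 4 ratios), so a difference was not shown. The longest Stat5a transcript is 57.9% GC and that of Stat5b 52.7%. With the GC and length trend removed, the ratio differed by 0.53 (exact permutation p = 0.114), the log2 fold change of Stat5a was 0.39 and that of Stat5b -0.0619. With 1 library left out, Stat5a ran from 0.10 (without heterozygote-labelled replicate 3) to 0.35 (without wild-type replicate 4), and Stat5b from -0.42 (without heterozygote-labelled replicate 2) to -0.11 (without heterozygote-labelled replicate 4).

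Summed per length, the 6 STAT genes stood at 38.6 ± 4.07 CPM per kilobase in wild-type and 31.6 ± 4.70 in heterozygote-labelled libraries (SD, n = 4 each). The libraries ran from 34.1 to 42.2 and from 26.2 to 37.3 CPM per kilobase, so the groups overlapped. Stat6 made up 9.24% ± 2.67 of that sum in wild-type and 5.43% ± 0.798 in heterozygote-labelled libraries, and Stat5a 14.8% ± 4.33 and 20.5% ± 3.71. Both shares overlapped between the groups. Stat6 was 2.07 of 34.1 CPM per kilobase in wild-type replicate 3 and 1.96 of 30.0 in heterozygote-labelled replicate 3. Stat5a was 7.21 of 36.1 in wild-type replicate 4 and 5.87 of 33.0 in heterozygote-labelled replicate 1.

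Among the 36 pairs of members, log2 CPM correlated positively over the 8 libraries in 18 and negatively in 18. Stat4 with Stat5b was the 1 pair past the adjusted threshold, with Pearson r = 0.892 (exact permutation p = 0.000818, adjusted p = 0.0294) and Spearman rho = 0.952 (exact permutation p = 0.00114, adjusted p = 0.0410). Without the 2 libraries farthest from the Stat4 median, r was 0.950. With genotype means subtracted r was 0.864 and the adjusted p 0.103, and with the GC and length trend of each library removed r was 0.573 with an adjusted p of 0.886 by the exact permutation test. The longest Stat4 transcript is 45.4% GC. The relation did not hold once the trend was removed, and its cause was not tested. Stat3 with Stat4 came next at r = 0.793 (adjusted p = 0.301 by the exact permutation test), and Stat5a with Stat5b had r = -0.134 (exact permutation p = 0.761), which was 0.323 with the trend removed and 0.292 without 2 libraries.

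**Figure D4:**
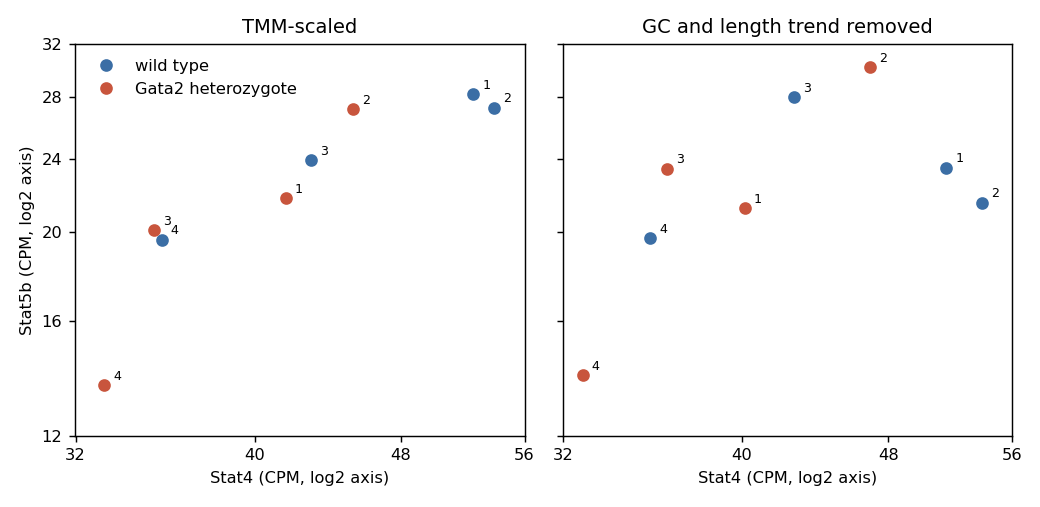
Stat5b against Stat4 in CPM on log2 axes, 1 point per library numbered by replicate, wild type in blue and heterozygote label in red, before (left) and after (right) each library's GC and length trend was taken out. The points follow a line on the left (r = 0.892) and scatter on the right (r = 0.573).

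For each member the protein-coding gene with the most similar profile was taken among 7422 genes with at least 10 CPM, by Pearson r of log2 CPM over 8 libraries after subtraction of the genotype means. For the kinases these were Gmpr for Jak1 (r = 0.970), Maml2 for Jak2 (0.954) and Ddost for Tyk2 (0.980). For the STAT genes they were Ap1s2 for Stat2 (0.976), Rnf5 for Stat3 (0.980), Rnf111 for Stat4 (0.992), Crebl2 for Stat5a (0.978), Cfap20 for Stat5b (0.981) and Arhgap6 for Stat6 (0.968). With 8 libraries and so many genes such values are descriptions of these libraries, and no member was the nearest profile of another since members were not compared.

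Around the members, 5 lists of pathway genes held 0 genes past the adjusted threshold by edgeR. Of 29 cytokine receptor chains 23 were tested, 9 higher and 14 lower around a median of -0.11 (log2). At an unadjusted edgeR p under 0.05, 1 was higher and 2 were lower. Over all tested genes 2.37% were higher and 3.29% lower at that threshold, which also stands beside the lists below. Il11ra1, an interleukin 11 receptor chain that works through gp130, was at 78.0 ± 31.7 and 32.3 ± 5.34 CPM without overlap (log2 -1.27, SE 0.29, adjusted p = 0.847 by edgeR and 0.0105 by DESeq2). Il11ra1 has near-identical copies in the mouse genome, so its count is uncertain. Il2rg, the common gamma chain that binds a Janus kinase, differed by 0.38 (SE 0.14), and Csf2rb, the common beta chain of the interleukin 3 and granulocyte-macrophage receptors, by 0.65 (SE 0.31). Il4ra, through which interleukin 4 reaches Stat6, was low, at 3.76 ± 1.02 and 3.48 ± 2.87 CPM.

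Negative regulators were split, with 9 of 19 higher, 10 lower, a median of -0.11 and 0 at an unadjusted p under 0.05. Socs1, which blocks Janus kinases, was at 2.90 ± 2.33 and 0.657 ± 1.20 CPM (log2 -2.13, SE 1.37). Socs4 differed by 0.41 (SE 0.20), Pias1, an inhibitor of STAT binding to DNA, by 0.28 (SE 0.13), and the phosphatase gene Ptpn2 by -0.23 (SE 0.17). Adaptors and nuclear partners had 6 of 13 higher and 7 lower, with a median of -0.12. Among them the coactivator genes Ncoa1 and Ep300 differed by 0.41 (SE 0.22) and -0.59 (SE 0.34), Gfer by -0.41 (SE 0.27) and the importin gene Kpna1 by -0.27 (SE 0.19).

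STAT3 and STAT5 target genes had 7 of 17 higher and 10 lower, with a median of -0.14. At an unadjusted edgeR p under 0.05, 3 were lower, beside 3.29% of all tested genes. Bcl2l1, which encodes the survival protein Bcl-xL, was at 18.3, 27.1, 4.36 and 9.87 CPM in wild-type and 2.66, 6.37, 2.40 and 7.68 CPM in heterozygote-labelled replicates. Wild-type replicates 1 and 2 were the high libraries, and the groups overlapped (log2 -1.64, SE 0.60, adjusted p = 0.850 by edgeR). Bcl6, a repressor, was near the detection limit at 1.68 ± 0.915 and 0.449 ± 0.253 CPM, and Myc differed by -0.50 (SE 0.22). Mcl1, another survival gene, differed by 0.27 (SE 0.14). With the GC and length trend removed the median of this list was 0.19 and those of the receptor, regulator and adaptor lists 0.07, 0.08 and 0.14, while the median of all genes moved from -0.02 to 0.04, so these 4 list medians turned in direction. With the replicate block added to that removal, the target list was at -0.07 and the receptor list at 0.0083. Under a filter at a mean of 1 CPM the target list was at -0.36.

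Interferon target genes, the outputs of Jak1, Tyk2 and Stat2, had 13 of 21 tested genes higher and 8 lower, with a median of 0.07. At an unadjusted edgeR p under 0.05, 2 were higher, beside 2.37% of all tested genes. With the TMM factors, the list of 24 summed to 1108, 937, 1075 and 1032 CPM in wild-type replicates. Heterozygote-labelled replicates stood at 1241, 1173, 1229 and 1180 CPM, without overlap, while Stat2 and Tyk2 had fold changes below 1. The factors were 1.059 for wild-type replicate 1 and 0.977 and 0.976 for heterozygote-labelled replicates 2 and 4. Undoing them puts wild-type replicate 1 above both, so the separation depended on the scaling. Rtp4 was at 137 ± 18.5 and 195 ± 35.5 CPM (log2 0.51, SE 0.16, adjusted p = 0.850 by edgeR), Ifi44 differed by 0.45 (SE 0.19), Xaf1 by 0.41 (SE 0.19) and Trim30a by 0.34 (SE 0.17). The list median was 0.18 with the GC and length trend removed and 0.16 without wild-type replicate 1. Scaled by library size alone it was -0.0020, and that of all genes -0.08. All mice had received pIpC, so these levels describe cells after interferon induction in both groups.

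**Figure D5:**
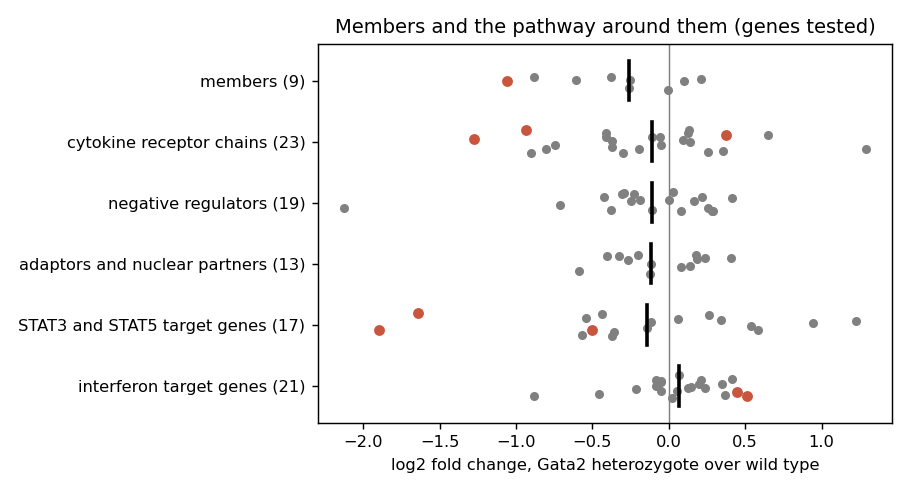
Log2 fold change, heterozygote label over wild type, of the 9 members and of the tested genes of 5 pathway lists (number tested in brackets), 1 point per gene, red where the unadjusted edgeR p was under 0.05, with a black bar at each median. The member median is -0.26 and the list medians lie between -0.14 and 0.07.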

How the data were processed

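The deposited values are raw fragment counts per gene from stranded, rRNA-depleted, paired reads of 75 bases, which the authors did not normalize. Per the submitters' processing notes, trimming used Trim Galore with cutadapt, and STAR 2.5.1b aligned the reads to GRCm38; per the file headers, fragments were counted with featureCounts 1.6.2 (1.5.1 in the notes) on GENCODE M17, leaving out multimapping and multi-gene fragments, which lowers counts of near-identical or overlapping genes. Symbols came from GENCODE M21 (53620 of 53715 matched; rows without a symbol held at most 0.0170% of counts). No 2 libraries agreed within sampling noise.

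Groups and replicate numbers came from the library descriptions, and 1 library per mouse was the replicate. Counts were filtered by filterByExpr, scaled by TMM (factors 0.946 to 1.08) and fitted across 13992 genes with edgeR 4.0.16 (robust quasi-likelihood, genotype as the only term, Benjamini-Hochberg adjustment, threshold 0.05) in R 4.3.3, after a test on simulated data. DESeq2 1.42.0 and limma 3.58.1 were alternatives, beside other scalings, filters and terms and each library left out. Removal of GC and length trends (loess, span 0.3) and DESeq2 on the edgeR genes were added after the data were seen. Log2 CPM carries a prior count of 2 in the correlations. Exact permutation tests are two-sided.

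The genes named are the 9 members, Gata2 and Ly6a, up to 4 genes of smallest p with a mean of at least 1 CPM per pathway list, and 1 most similar gene per member. Irf9, Il4ra and the lymphoid marker genes were named outside this rule, after their values were seen. A gene that the rule takes is not reported here. Members and lists were chosen with earlier results of these data known.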

Additional observations from a re-analysis of the deposited data

How the results depend on the processing

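Of the results above, the call of 0 members held under every alternative run, and Stat6 kept its direction in each, with adjusted p between 0.106 and 1.0. DESeq2 called 79 genes in all, and 29 on the genes of the edgeR filter, against 0 by edgeR. The number of members at an unadjusted p under 0.05 was 1 and became 2 with limma voom and with the replicate block, where Stat3 joined Stat6, and 0 with the GC trend removed and the replicate block together. The share of all genes at that threshold was 5.66% in the analysis reported, 10.4% with voom, 6.76% with the block and 6.22% with both corrections. Leaving out 1 library gave 1 to 2 members: Stat3 joined without wild-type replicate 3 or heterozygote-labelled replicate 2, and Stat2 without heterozygote-labelled replicate 3, where 12.5%, 4.88% and 4.33% of all genes were at that threshold. Same-numbered libraries of the 2 genotypes correlated at 0.00565 to 0.0961 in their deviations, and 4 of 8 correlated best with their own number, so none reached the 0.1 required for pairing. Same-numbered libraries also share sex, which the replicate block therefore takes in.

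Jak1, at -0.0046, turned to 0.00814 with RLE scaling and with DESeq2 on the edgeR genes, 0.0293 with upper quartile scaling, 0.00423 with DESeq2, 0.00316 with the replicate block, 0.0127 on protein-coding genes, 0.0751 with the GC trend removed and 0.0705 with that and the block, and ran from -0.0961 to 0.103 with 1 library left out. Jak2 then ran from -0.0873 to 0.269. With 1 library left out the ratio differences ran from 0.319 to 0.741 for Stat5a to Stat5b and from -0.19 to 0.341 for Jak2 to Jak1. They ran from -1.52 to -0.337 for Tyk2 to Jak1 and from -0.405 to 0.564 for Stat2 to Stat6, which was 0.00578 with a prior count of 2. The 0.741 arose without wild-type replicate 4, the wild-type library whose ratio lay among the heterozygote-labelled ones. Its omission separated the groups completely, and the exact permutation p of 0.0286 before adjustment is the smallest then possible. The medians of the receptor, regulator and adaptor lists changed sign in at least 1 such omission, between -0.164 and 0.0245, -0.181 and 0.0987, and -0.227 and 0.148. That of the STAT3 and STAT5 targets ran from -0.287 to -0.0414 and that of the interferon targets from 0.0356 to 0.159. The Stat4 and Stat5b relation left 0 pairs past the threshold with genotype means subtracted and 0 with the GC trend removed. The cause of these changes was not tested. Depth limits Tyk2 and Stat2 most, with as few as 9 and 21 fragments.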
